A study of Homo sapiens with 6 samples.

Results

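Amino acid transporter genes were taken as the protein-coding genes of 7 solute carrier families, SLC1, SLC3, SLC6, SLC7, SLC36, SLC38 and SLC43, by gene name, without SLC6A8, a creatine carrier. By this rule there were 58 such genes among the 58735 genes of the count table, of which 19951 were protein-coding. SLC6 held 18 of them, SLC7 13, SLC38 11, SLC1 7, SLC36 4, SLC43 3 and SLC3 2. The cells were MDA-MB-231, a human triple-negative breast cancer (TNBC) line labelled wild type, treated for 24 h with vehicle or with 100 mg/l of SCH, an aqueous extract of the herb Salvia chinensia Benth whose doses were set as the weight of raw herb. Each group held 3 samples, described as biological repeats of this 1 line. RNA was purified with poly-T beads and sequenced on an Illumina HiSeq instrument, and the authors deposited raw counts and FPKM values per gene. Libraries held 20291379, 18714240 and 18334857 counts on genes with vehicle and 16836369, 17979434 and 18414924 with SCH.

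Amino acid carriers move amino acids across the plasma membrane and the membranes of organelles. Some are exchangers, which bring in 1 amino acid while another leaves, and others use the gradient of sodium or protons to concentrate their substrate. Several light chains of SLC7 reach the surface only when joined by a disulfide bond to a heavy chain of SLC3. In tumour cells these carriers are known for supplying glutamine, essential amino acids and cystine, and carriers of the lysosome pass the state of amino acid supply on to the kinase complex mTORC1.

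The marker genes fitted the label for most, though not all, markers. VIM, CD44, AXL and MSN, mesenchymal and surface genes of this line, together had between 764 and 783 FPKM (fragments per kilobase of gene length and per 1000000 counts) in the vehicle samples and between 545 and 550 in the SCH samples. ESR1, PGR and CDH1 had at most 6 counts in any sample. ERBB2 had 6.44 to 8.86 FPKM, EPCAM 4.20 to 6.83 and GATA3 1.84 to 3.98, so these genes were low but present. Summed levels of the leukocyte, endothelial, fibroblast, hepatocyte and neuron markers stayed under 1 FPKM for each list in every sample. The most abundant gene of these lists by count was COL1A1, with 80 to 106 counts in vehicle and 147 to 162 in SCH, while DCN had none. PTPRC had 39, 37 and 34 counts in vehicle and 4, 9 and 3 in SCH. The part of other cells in the results was not tested. In bulk RNA, fewer cells of a type and less RNA per cell cannot be told apart.

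Many of the transporter genes had few or no counts. Of the 58 genes, 16 had no count in any sample, which allows up to 3 counts per library, or 0.148 to 0.178 per 1000000 counts of the library total. Another 16 had counts, at most 42 over the 6 samples, but did not pass the filter of edgeR on low counts. The remaining 26 were tested, and 23 of them had a mean count of at least 100. SLC6A14 was the only tested gene that passed the filter through 1 group alone, with all 3 vehicle samples and no SCH sample over the filter level of 0.544 per 1000000 counts. Values in CPM below are counts per 1000000 with the library total scaled by the TMM factors, and serve to compare samples within a gene. Genes without a count included SLC1A6, SLC3A1, SLC6A2, SLC6A5, SLC6A15, SLC6A17, SLC6A19, SLC7A3, SLC7A4, SLC7A8, SLC7A13, SLC7A14, SLC36A3, SLC38A3 and SLC38A11. Among them is SLC3A1, the heavy chain of the renal cystine carrier.

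Most of the transporter message lay in 5 genes. SLC1A5, SLC3A2, SLC7A5, SLC38A2 and SLC38A1 together had 74.7% ± 0.460 (SD, n = 3) of the summed FPKM of all members in vehicle and 73.9% ± 0.125 in SCH. In vehicle the highest mean level was that of SLC7A5, at 158 ± 8.04 FPKM, followed by SLC1A5 at 152 ± 10.3 and SLC3A2 at 134 ± 8.24. In SCH the order was SLC3A2 at 132 ± 5.08 FPKM, SLC1A5 at 122 ± 10.2 and SLC7A5 at 99.2 ± 5.08. In vehicle the samples of SLC7A5 and SLC1A5 overlapped, though SLC7A5 was the higher in each sample (158 and 155, 166 and 161, 149 and 141 FPKM). In SCH those of SLC3A2 and SLC1A5 overlapped, with SLC3A2 the higher in each sample (138 and 133, 130 and 119, 128 and 113 FPKM). SLC38A2 and SLC38A1 came next in vehicle, at 61.0 ± 3.95 and 60.8 ± 3.43 FPKM, and were not apart. In SCH they were apart, at 63.4 ± 4.52 and 42.5 ± 0.819 FPKM. Below them in mean level lay SLC43A3, SLC7A1, SLC6A6, SLC7A2, SLC38A10 and SLC7A11, all over 10 FPKM in both groups. At the lower end of the plot of levels are SLC7A7, with 0.216 ± 0.0466 FPKM in vehicle and 0.212 ± 0.0840 in SCH, and SLC6A14, with 0.232 ± 0.0428 and 0.0619 ± 0.0245.

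**Figure D1:**
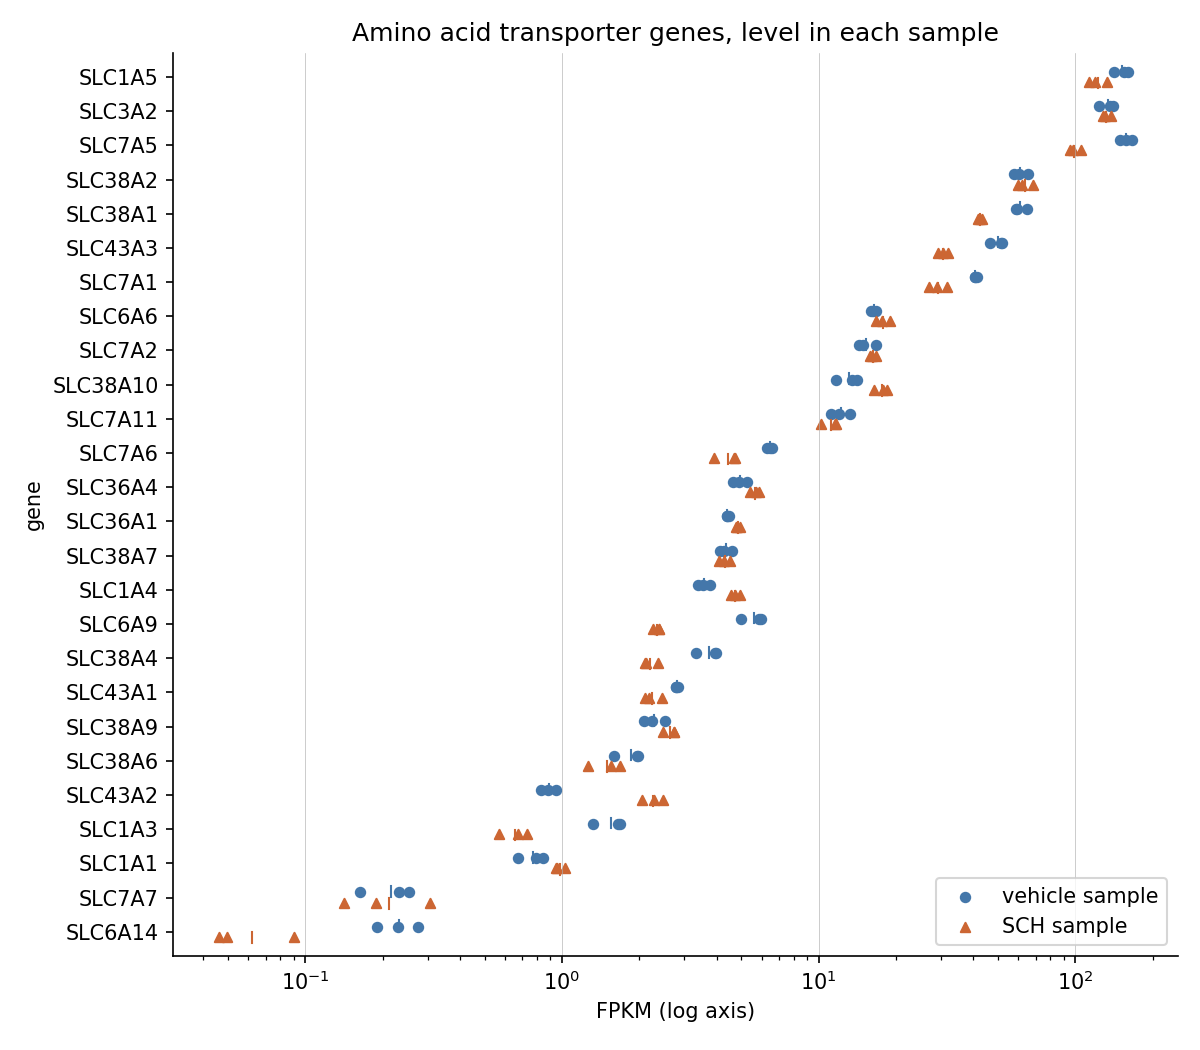
Level of each of the 26 tested amino acid transporter genes in each sample (FPKM, log axis), with circles for the 3 vehicle samples, triangles for the 3 SCH samples and a tick at each group mean. SLC1A5, SLC3A2 and SLC7A5 lie at the top, and the samples of SLC7A5 change from 149 to 166 in vehicle to 94.9 to 105 in SCH.

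After SCH, 17 of the 26 tested transporter genes had changed at an adjusted p under 0.05 in edgeR's quasi-likelihood test (Benjamini-Hochberg over all 14736 genes tested), 5 of them raised and 12 lowered, with SLC6A14 among the lowered. Over all genes tested the share called was 58.7%, of which 29.3% of all tested were raised and 29.4% lowered. For the 23 transporter genes whose mean count was 100 or more, 16 were called, with 5 raised and 11 lowered, beside 66.6% of all genes at that level, with 34.1% raised and 32.5% lowered. The share called among the transporter genes was thus near that of all genes. Counts of called genes by role, given below, stand beside these same shares. Their median log2 fold change was -0.078, beside -0.0034 for all genes tested, and with no TMM factors, only library size, it turned to 0.025 and that of all genes to 0.099. With library size alone 10 transporter genes were raised and 10 lowered, and 62.6% of all changed genes were raised in place of 49.9%. SLC38A2, SLC6A6, SLC7A2, SLC36A1 and SLC1A1 joined the raised genes in that setting, and SLC43A1 and SLC38A6 left the lowered ones. Without vehicle replicate 1, 3 were raised in place of 5. The median of the members was -0.16 without vehicle replicate 1, -0.18 without vehicle replicate 2, -0.15 without SCH replicate 1 and -0.19 without SCH replicate 2. Where at least 10 counts were asked of every sample, which left out SLC6A14, the median was -0.033.

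Samples of the 2 groups did not overlap in CPM in 17 of the tested members, with SCH above in 6 and below in 11, beside 62.4% of all genes tested. Log2 fold changes of 1 or more in size were found in 4 called members, SLC43A2 upward and SLC6A9, SLC1A3 and SLC6A14 downward, the last of them admitted to the test only through vehicle. Over all 14736 genes tested, 1292 were called at that size, 573 raised and 719 lowered. Replicates lay close together. Among the 23 members with at least 100 counts, the coefficient of variation of CPM ran from 1.11% (SLC36A1) to 13.3% (SLC1A3) in vehicle, with a median of 6.54%, and from 1.76% (SLC38A1) to 14.7% (SLC38A6) in SCH, with a median of 5.76%. An exact permutation test of a single gene cannot go below a two-sided p of 0.1 with 3 samples against 3, so the calls rest on the fit across all genes. The plot of changes by role gives each tested member with its interval.

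**Figure D2:**
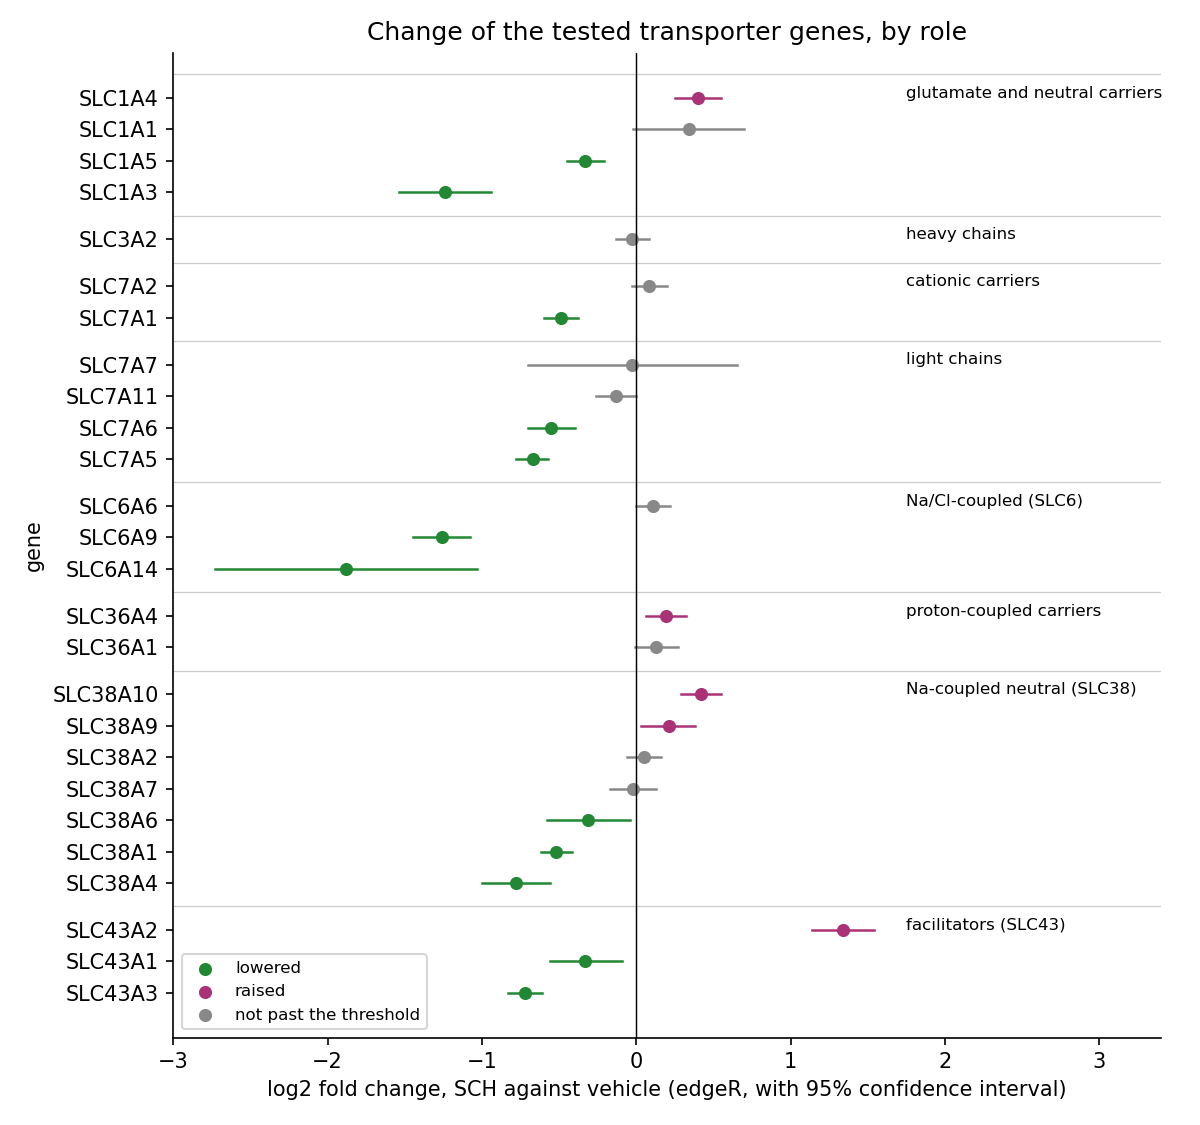
Log2 fold change of SCH against vehicle for the 26 tested amino acid transporter genes, grouped by role, with 95% confidence intervals from edgeR. SLC43A2 stands at 1.34 on the right, and SLC6A9 and SLC1A3 at -1.26 and -1.24 on the left, with the scarcely counted SLC6A14 at -1.88 with the widest interval.

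The heavy chain of the heteromeric carriers and its main light chain moved unequally. SLC3A2, the heavy chain known as CD98hc (ENSG00000168003, GRCh38 chr11:62856102-62888875, plus strand), had 736, 748 and 667 CPM in the vehicle samples and 732, 691 and 687 in the SCH samples. The groups overlapped, and its log2 fold change of -0.027 had a 95% confidence interval from -0.13 to 0.08 (adjusted p = 0.662, edgeR). SLC7A5, the light chain that exchanges leucine and other large neutral amino acids (ENSG00000103257, chr16:87830023-87869488, minus strand), had 775, 812 and 735 CPM in vehicle and 510, 464 and 481 in SCH. All 3 SCH samples lay below all vehicle samples, with a log2 fold change of -0.67 (SE 0.050, adjusted p = 6.44e-11, edgeR), a fall to 0.626 of the vehicle level.

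Of the 8 light chain genes, 4 were tested, and 2 were lowered and none raised. SLC7A6, whose product exchanges cationic for neutral amino acids (ENSG00000103064, chr16:68264516-68301823, plus strand), had 49.4, 51.6 and 50.9 CPM in vehicle and 36.8, 36.5 and 30.7 in SCH. Its groups were apart, with a log2 fold change of -0.55 (SE 0.072, adjusted p = 6.29e-07, edgeR). Of the exon bases of SLC7A6, 55.6% lie in exons of the convergent gene SLC7A6OS on the other strand, which itself had a log2 fold change of 0.22 (adjusted p = 0.0336, edgeR). The strand setting of the counting is not given in the sources used here, so reads of the 2 genes cannot be told apart in the shared bases. SLC7A11, the cystine and glutamate exchanger (ENSG00000151012, chr4:138164097-138242349, minus strand), had 119, 112 and 133 CPM in vehicle and 115, 116 and 102 in SCH. These groups overlapped, with a log2 fold change of -0.13 (95% confidence interval -0.26 to 0.00, adjusted p = 0.0819, edgeR), and the call appeared without vehicle replicate 2 (-0.18) and with upper quartile scaling (-0.16). SLC7A7, which like SLC7A6 exchanges cationic for neutral amino acids, had 13 to 30 counts in any sample and a log2 fold change of -0.025 with an interval from -0.70 to 0.65. SLC7A10 had 1 count in all and SLC7A9 at most 2 in a sample.

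Levels in FPKM are per length, taken as all annotated exon bases of a gene and not the length of the transcript in use. Heavy and light chains can thus be set side by side only roughly. Summed over the light chains that pair with SLC3A2, the ratio of light chain FPKM to SLC3A2 FPKM was 1.28, 1.31 and 1.36 in vehicle and 0.880, 0.861 and 0.875 in SCH. Every SCH value lay below every vehicle value. Whether the ratio is above or below 1 depends on the lengths used, so only its change between groups is read. SLC7A5 alone gave a ratio of 1.18 ± 0.0262 in vehicle and 0.752 ± 0.0171 in SCH (SD, n = 3). FPKM of SLC7A11 over that of SLC7A5 went from 0.0775 ± 0.0106 to 0.113 ± 0.00930. These ratios were chosen after the values were seen and are given as a description, with no test.

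**Figure D3:**
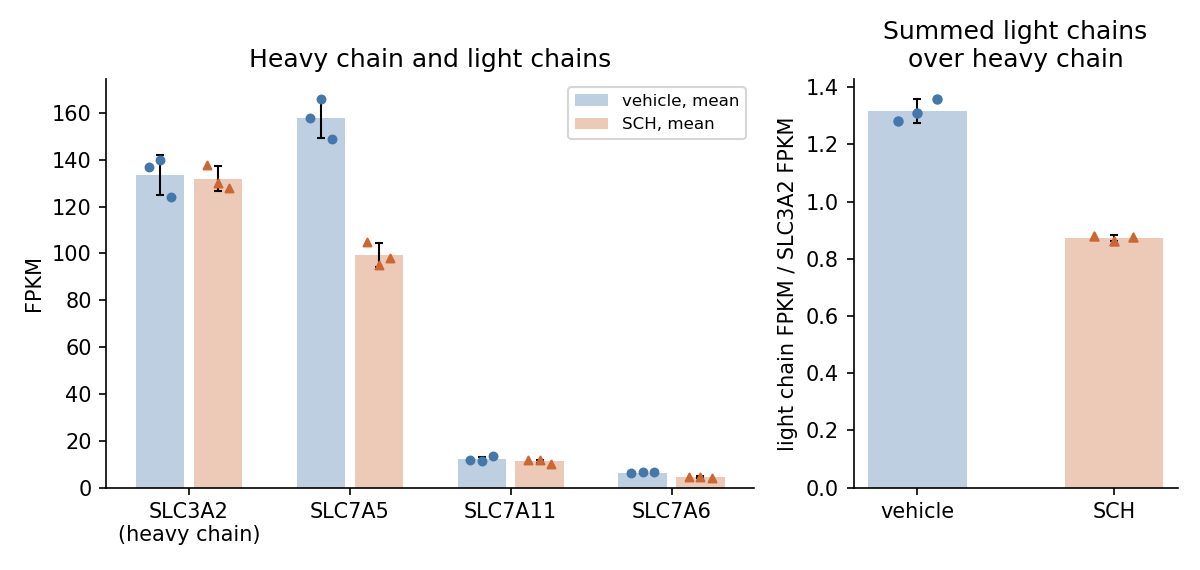
Left, FPKM of the heavy chain SLC3A2 and of its 3 most abundant light chains in vehicle and SCH, with bars for the mean, error bars for the SD and points for the 3 samples of each group. Right, summed light chain FPKM divided by SLC3A2 FPKM, at 1.32 ± 0.0394 in vehicle and 0.872 ± 0.0101 in SCH.

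The cationic branch of SLC7 held 5 genes, of which 2 were tested and 1 was lowered. SLC7A1, which carries arginine and lysine (ENSG00000139514, chr13:29509410-29595688, minus strand), had 322, 330 and 322 CPM in vehicle and 250, 229 and 214 in SCH. Every SCH sample lay below every vehicle sample, with a log2 fold change of -0.49 (SE 0.053, adjusted p = 2.96e-08, edgeR). SLC7A2, a second carrier of the same amino acids, had 125 ± 10.2 CPM in vehicle and 133 ± 3.49 in SCH (SD, n = 3). Its groups overlapped, with a log2 fold change of 0.083 and an interval from -0.03 to 0.20 (adjusted p = 0.217, edgeR), and it was called without vehicle replicate 3 (0.15).

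Among the 7 glutamate and neutral carriers of SLC1, 4 were tested, 1 was raised and 2 were lowered. SLC1A5, the sodium-dependent glutamine exchanger (ENSG00000105281, chr19:46774883-46788594, minus strand), had 534, 556 and 487 CPM in vehicle and 455, 409 and 390 in SCH. The groups were apart, with a log2 fold change of -0.33 (SE 0.057, adjusted p = 2.84e-05, edgeR). SLC1A4, its close relative for alanine, serine and cysteine (ENSG00000115902, chr2:64988477-65023865, plus strand), had 24.4, 27.1 and 25.5 CPM in vehicle and 32.3, 35.5 and 33.9 in SCH. Here all SCH samples lay above the vehicle samples, with a log2 fold change of 0.40 (SE 0.074, adjusted p = 5.77e-05, edgeR). The FPKM of SLC1A5 was 42.7 ± 2.94 times that of SLC1A4 in vehicle and 25.8 ± 3.07 times in SCH, a ratio also chosen after the values were seen. SLC1A3, a carrier of glutamate and aspartate best known from glia (ENSG00000079215, chr5:36606355-36688334, plus strand), had 10.8, 8.52 and 10.9 CPM in vehicle and 3.67, 4.35 and 4.73 in SCH. The highest SCH sample was thus well under the lowest vehicle sample, with a log2 fold change of -1.24 (SE 0.143, adjusted p = 9.31e-08, edgeR), or -0.62 in limma on log2(FPKM + 1). SLC1A1, a glutamate and cysteine carrier, had 3.28, 2.79 and 3.49 CPM in vehicle and 4.24, 3.92 and 3.94 in SCH. Its groups did not overlap, but the log2 fold change of 0.34 missed the threshold (interval -0.02 to 0.70, adjusted p = 0.0990, edgeR) and passed it in limma on log2(FPKM + 1), with 0.16. SLC1A7, not tested in the main comparison, had 17, 6 and 13 counts in vehicle and 0, 1 and 5 in SCH. It was called lowered with no filter on low counts, and without vehicle replicate 2 or any 1 SCH replicate, where it passed the filter only through the vehicle samples, so those leave-one-out calls are not read as a fall. SLC1A2 had at most 2 counts in a sample.

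SLC38, the sodium-coupled carriers of glutamine, alanine and other small neutral amino acids, had 11 genes, of which 7 were tested, 2 raised and 3 lowered. SLC38A1 (ENSG00000111371, chr12:46183063-46270017, minus strand) had 612, 608 and 672 CPM in vehicle and 437, 446 and 431 in SCH. The groups were far apart beside the spread within SCH, with a log2 fold change of -0.52 (SE 0.049, adjusted p = 2.69e-09, edgeR). SLC38A2, its neighbour on chromosome 12 and a gene known to be induced when amino acids are scarce (ENSG00000134294, chr12:46358189-46372867, minus strand), had 411, 393 and 446 CPM in vehicle and 420, 466 and 408 in SCH. Those samples overlapped, and the log2 fold change was 0.049 with an interval from -0.06 to 0.16 (adjusted p = 0.464, edgeR). The FPKM of SLC38A1 was 0.998 ± 0.0199 of that of SLC38A2 in vehicle and 0.672 ± 0.0349 in SCH (SD, n = 3), again a ratio chosen after the values were seen. SLC38A4, the third gene of this cluster (ENSG00000139209, chr12:46764761-46832408, minus strand), had 17.1, 14.3 and 17.0 CPM in vehicle and 9.00, 9.02 and 10.1 in SCH. Its groups were apart, with a log2 fold change of -0.78 (SE 0.106, adjusted p = 1.16e-06, edgeR).

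SLC38A10 (ENSG00000157637, chr17:81245000-81295547, minus strand) had 108, 112 and 93.8 CPM in vehicle and 147, 142 and 131 in SCH. All SCH samples were higher, with a log2 fold change of 0.42 (SE 0.062, adjusted p = 3.84e-06, edgeR). SLC38A9, a lysosomal protein that senses arginine for mTORC1, had 20.8 ± 1.99 CPM in vehicle and 24.0 ± 1.38 in SCH, and its groups overlapped. Its log2 fold change of 0.21 passed narrowly (adjusted p = 0.0415, edgeR) and lost the call without vehicle replicate 1 (0.20), vehicle replicate 2 (0.15), SCH replicate 2 (0.19) or SCH replicate 3 (0.19), with upper quartile scaling, and in DESeq2 and both limma fits. SLC38A6 was likewise near the threshold, at 9.83 ± 1.13 CPM in vehicle and 7.93 ± 1.16 in SCH with overlapping groups. It had a log2 fold change of -0.31 (adjusted p = 0.0437, edgeR) that lost the call without vehicle replicate 1 (-0.26), vehicle replicate 3 (-0.26), SCH replicate 1 (-0.33) or SCH replicate 2 (-0.19), with library size alone or no filter, and in DESeq2 and both limma fits. SLC38A7, the lysosomal glutamine exporter, had 31.4 ± 1.66 CPM in vehicle and 31.0 ± 1.52 in SCH, a log2 fold change of -0.019 with an interval from -0.17 to 0.13. SLC38A5 had 1 to 8 counts per sample and SLC38A8 had counts in 1 sample.

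The 3 genes of SLC43, facilitators that need no ion gradient, all changed, 1 upward and 2 downward. Over all genes tested 58.7% were called, and 66.6% of those with a mean of 100 counts or more. SLC43A2, a carrier of branched-chain and other large neutral amino acids (ENSG00000167703, chr17:1569267-1628886, minus strand), had 10.4, 9.08 and 9.73 CPM in vehicle and 26.9, 24.9 and 22.5 in SCH. Every SCH sample was more than 10 CPM above the highest vehicle sample, and its log2 fold change of 1.34 (SE 0.097, adjusted p = 4.01e-11, edgeR) was a rise to 2.54 times the vehicle level. In limma on log2(FPKM + 1), a scale that understates changes of low genes, it was 0.79. SLC43A1, a carrier of the same amino acids (ENSG00000149150, chr11:57484534-57515786, minus strand), had 10.2, 10.1 and 10.4 CPM in vehicle and 8.89, 7.62 and 7.94 in SCH. The SCH samples lay below, with a log2 fold change of -0.33 (SE 0.114, adjusted p = 0.0162, edgeR), and the call was lost without SCH replicate 2 (-0.28), without SCH replicate 3 (-0.30) and with library size alone (-0.23). SLC43A3, known as a carrier of purine bases and not of amino acids (ENSG00000134802, chr11:57406954-57427580, minus strand), had 242, 240 and 218 CPM in vehicle and 148, 141 and 136 in SCH. Its groups were apart, with a log2 fold change of -0.72 (SE 0.053, adjusted p = 6.15e-11, edgeR). Of the 3 large neutral amino acid carriers described so far, SLC7A5 was by far the most abundant, at 158 ± 8.04 FPKM in vehicle, beside 2.80 ± 0.0386 for SLC43A1 and 0.887 ± 0.0604 for SLC43A2. After SCH the level of SLC43A2 was 2.27 ± 0.214 FPKM, close to the 2.24 ± 0.187 of SLC43A1.

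Most SLC6 genes, sodium- and chloride-coupled carriers that also include monoamine, GABA and taurine carriers, had few or no counts. Of 18, 6 had no count, 3 were tested and 2 of these were lowered. SLC6A9, the glycine carrier of most tissues (ENSG00000196517, chr1:43991500-44031467, minus strand), had 31.3, 31.8 and 26.7 CPM in vehicle and 12.0, 12.7 and 12.7 in SCH. The SCH samples were within 1 CPM of each other and all below, with a log2 fold change of -1.26 (SE 0.089, adjusted p = 2.85e-11, edgeR), a fall to 0.417 of the vehicle level. Of its exon bases, 7.83% are shared with CCDC24 on the other strand, which had a log2 fold change of 0.59. SLC6A14, a carrier of neutral and cationic amino acids, was near the detection limit, with 21, 16 and 23 counts in vehicle and 4, 4 and 8 in SCH. Its fitted log2 fold change was -1.88 (SE 0.412, adjusted p = 4.19e-04, edgeR), on a gene admitted to the test only by the group where it was high. The value was -1.04 in limma on log2(FPKM + 0.1) and -0.21 on log2(FPKM + 1), and it was no longer tested where 10 counts were asked of every sample. SLC6A6, the taurine carrier, was the most abundant SLC6 gene, at 16.4 ± 0.409 FPKM in vehicle and 17.8 ± 1.07 in SCH. In log2 its change was 0.11 (interval 0.00 to 0.22, adjusted p = 0.0720, edgeR), and it was called without SCH replicate 2 (0.16). Untested SLC6A16 had 10, 7 and 12 counts in vehicle and 5, 3 and 4 in SCH. The other untested SLC6 genes with counts were SLC6A3, SLC6A4, SLC6A7, SLC6A11, SLC6A12, SLC6A13, SLC6A18 and SLC6A20, none with over 7 counts in a sample.

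Of the 4 SLC36 genes, grouped as proton-coupled by family name only, 2 were tested and 1 was raised. SLC36A4, a carrier of proline and tryptophan (ENSG00000180773, chr11:93144171-93197964, minus strand), had 46.4, 48.9 and 52.9 CPM in vehicle and 56.6, 58.6 and 53.8 in SCH. The groups were just apart, with a log2 fold change of 0.19 (SE 0.065, adjusted p = 0.0145, edgeR), and the call was lost without vehicle replicate 1 (0.15) or SCH replicate 2 (0.17), while with library size alone the value was 0.29. SLC36A1, which moves small amino acids out of lysosomes, had 31.6, 31.6 and 32.2 CPM in vehicle and 34.4, 34.2 and 35.8 in SCH. Its samples did not overlap, but the log2 fold change of 0.13 was not called (interval -0.01 to 0.27, adjusted p = 0.103, edgeR). SLC36A2 had counts in 1 sample.

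Summed over all members, FPKM was 763, 776 and 735 in the vehicle samples and 649, 617 and 596 in the SCH samples, a ratio of group means of 0.819. Each SCH sum lay below each vehicle sum. By role, the ratio of SCH to vehicle was 0.652 for the light chains, 0.652 for SLC43, 0.809 for SLC1, 0.809 for the cationic branch, 0.907 for SLC6, 0.912 for SLC38, 0.986 for the heavy chains and 1.12 for SLC36. Each sum follows its most abundant genes, SLC7A5 in the light chains and SLC43A3 in SLC43, so the rise of SLC43A2 is hardly seen in it. The scale behind the deposited FPKM was 0.992 to 1.005 of the total count in vehicle and 1.063 to 1.067 in SCH, so SCH values in FPKM are lower than the total count alone would make them.

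Of the 26 tested members, 9 shared at least 1% of their exon bases with other genes. Beside SLC7A6 and SLC6A9 these were SLC43A3 (29.9% of exon bases, AP000781.2), SLC1A5 (23.8%, AC008622.2), SLC7A11 (8.97%, SLC7A11-AS1), SLC38A10 (7.91%, AC027601.4), SLC38A6 (6.28%, TRMT5), SLC7A5 (5.71%, AC126696.2) and SLC6A6 (2.9%, GRIP2). AP000781.2, AC008622.2, AC126696.2 and AC027601.4 had at most 8 counts in a sample. TRMT5 was lowered, with a log2 fold change of -0.29 (adjusted p = 5.19e-04, edgeR). The part of reads from these neighbours in the members' counts was not tested. The pseudogenes SLC7A5P1, SLC7A5P2 and SLC6A6P1 had no count in any sample.

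Promoter sequence from RefSeq (GRCh38.p14) was held for 43 of the 58 members, in 65 windows of 250 bases before a transcription start, and for 22 of the tested ones. The sequences just before the outermost start are shown for the most abundant light chain and for the members with the largest rise and the largest fall at 100 counts or more, SLC7A5 (chr16:87869508-87869757), SLC43A2 (chr17:1628887-1629084) and SLC6A9 (chr1:44031468-44031712). All 3 lie on the minus strand and are written 5′ to 3′ in the direction of the gene, without bases in annotated exons, and capitals mark an E-box, CACGTG.
SLC7A5: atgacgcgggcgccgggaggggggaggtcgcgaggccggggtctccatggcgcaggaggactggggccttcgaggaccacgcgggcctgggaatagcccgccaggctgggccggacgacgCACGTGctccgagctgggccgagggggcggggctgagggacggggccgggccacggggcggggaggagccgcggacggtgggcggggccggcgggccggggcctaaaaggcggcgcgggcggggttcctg
SLC43A2: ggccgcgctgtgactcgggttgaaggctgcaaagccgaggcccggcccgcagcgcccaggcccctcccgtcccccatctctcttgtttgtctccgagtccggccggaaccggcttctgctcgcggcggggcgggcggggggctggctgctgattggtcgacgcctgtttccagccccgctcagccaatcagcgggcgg
SLC6A9: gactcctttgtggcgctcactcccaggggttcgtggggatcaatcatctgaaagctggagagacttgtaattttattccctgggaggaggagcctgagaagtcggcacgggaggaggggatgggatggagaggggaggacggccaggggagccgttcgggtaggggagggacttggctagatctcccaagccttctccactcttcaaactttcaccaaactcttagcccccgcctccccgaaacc
The window of SLC7A5 held an E-box 130 bases before the start, and the other 2 stretches held none of the motifs searched.

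Motifs of 3 kinds were searched on both strands after the values were seen, and no 2 of the matches overlapped each other. They were the E-box CACGTG, which MYC and other factors can bind, the C/EBP-ATF response element TGATGNAA, which ATF4 can bind, and the antioxidant response element TGACNNNGC, which NFE2L2 can bind. An E-box was in 9 of the 65 member windows (13.8%), beside 6.34% of all 35116 windows and 7.42% of the 21021 windows of protein-coding genes. TGATGNAA was in 2 (3.08%, beside 3.14% of all and 2.35% of coding windows), and TGACNNNGC in 6 (9.23%, beside 10.9% and 11.2%). The tested members with an E-box were SLC7A5, SLC1A5 and SLC43A1, which were lowered, and SLC36A1 and SLC7A7, which were not called. Those with TGATGNAA were SLC1A5 and SLC1A3, both lowered, and those with TGACNNNGC were SLC1A3, SLC1A5, SLC3A2, SLC7A1, SLC7A6 and SLC7A7, of which 4 were lowered. Over all members tested, 12 of 26 were lowered, and over all genes tested 29.4%, so nothing is read from these counts. A match is a description of letters and not of a bound site. In SLC1A5 and SLC3A2 the matches lie before starts inside the gene, and the windows of their outermost starts held none of the motifs. Matches of 30 bases are shown as examples for 3 lowered members and for the heavy chain SLC3A2, in the direction of the gene with the motif in capitals.
SLC1A5 E-box, chr19:46787326-46787355, minus strand: ggcgggagtggtCACGTGgacaggacgggg
SLC1A5 TGATGNAA, chr19:46784893-46784922, minus strand: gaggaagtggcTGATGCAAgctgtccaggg
SLC43A1 E-box, chr11:57515797-57515826, minus strand: cagcgggcgagtCACGTGcgcgtgaaactc
SLC3A2 TGACNNNGC, chr11:62881652-62881681, plus strand: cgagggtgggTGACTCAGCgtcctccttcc
SLC7A1 TGACNNNGC, chr13:29595754-29595783, minus strand: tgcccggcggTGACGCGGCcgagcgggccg

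Genes that regulate carriers were read from a list of 14, all tested, of which 11 were called, 4 raised and 7 lowered. Their median log2 fold change was -0.057, beside -0.0034 over all genes. The share called was 78.6%, beside 58.7% of all genes and 66.6% of those with a mean of 100 counts or more. ATF4, the activator of amino acid response genes, had 582, 583 and 579 CPM in vehicle and 385, 392 and 407 in SCH, a log2 fold change of -0.56 (SE 0.045, adjusted p = 2.73e-10, edgeR). TRIB3 had a log2 fold change of -0.72 and MYC of -0.69 (adjusted p = 1.61e-10 and 4.39e-10, edgeR). Raised were ATF3, a stress-induced factor, with 10.2, 10.8 and 9.50 CPM in vehicle and 31.3, 29.7 and 31.5 in SCH and a log2 fold change of 1.60 (adjusted p = 2.97e-13, edgeR), and NFE2L2 and HIF1A, factors of the oxidant and hypoxia responses, each with 0.34. NFE2L2 shares 20.9% of its exon bases with AC019080.1.

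Among 32 genes of lysosomal amino acid sensing, 31 were tested, and 12 were raised and 9 lowered (median 0.035, 67.7% called, beside 58.7% of all genes and 66.6% of those with a mean of 100 counts or more). SESN3, of the sestrin family of mTORC1 inhibitors, had 5.49, 5.07 and 6.02 CPM in vehicle and 27.7, 31.0 and 32.0 in SCH, a log2 fold change of 2.45 (SE 0.102, adjusted p = 2.68e-15, edgeR), or 1.33 in limma on log2(FPKM + 1). SESN1, of the same family, rose by 0.90 and RRAGD, a Rag GTPase, by 0.57 (adjusted p = 9.04e-07 and 7.96e-07, edgeR), with 0.57 for SESN1 in limma on log2(FPKM + 1). CASTOR2, of a family of arginine sensors, is named after its values were seen, since its mean count of 50.8 lies under the limit of 100. It had 38, 19 and 20 counts in vehicle and 69, 76 and 83 in SCH, a log2 fold change of 1.57 (SE 0.230, adjusted p = 3.24e-06, edgeR), and near-identical copies in the genome leave its counts uncertain. RPTOR, the Raptor subunit of mTORC1, had a log2 fold change of -0.77, NPRL3, a subunit of GATOR1, of -0.53, and SEH1L, a subunit of GATOR2 and of the nuclear pore, of -0.43.

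Of 27 enzymes that make or use the carried amino acids, 23 were tested, and 7 were raised and 11 lowered (median -0.19, 78.3% called, beside the same 58.7% and 66.6%, with 29.3% of all genes raised and 29.4% lowered). PYCR1, which completes proline synthesis, had 102, 105 and 87.9 CPM in vehicle and 38.2, 34.6 and 39.4 in SCH, a log2 fold change of -1.40 (SE 0.071, adjusted p = 9.28e-14, edgeR). BCAT1, the cytosolic transaminase of branched-chain amino acids, had 177, 177 and 209 CPM in vehicle and 77.3, 80.6 and 86.2 in SCH, a log2 fold change of -1.20 (SE 0.063, adjusted p = 1.90e-13, edgeR). PSAT1 of serine synthesis had a log2 fold change of -0.73. Raised were GLUL, which makes glutamine, by 0.45, and ARG2, the mitochondrial arginase, by 0.38. Exon bases shared with other genes were 29.7% in PYCR1 (AC145207.4) and 37.4% in ARG2 (VTI1B).

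Of 19 other amino acid carriers, 13 were tested, and 4 were raised and 5 lowered (median -0.048, 69.2% called, beside 58.7% and 66.6%). Raised were PQLC2, which exports cationic amino acids from lysosomes, by 0.51, and the mitochondrial carriers SLC25A22 (glutamate) by 0.36 and SLC25A29 (basic amino acids) by 0.25 on the log2 scale. Lowered were the mitochondrial carriers SLC25A15 (ornithine), with -0.60, and SLC25A13 (aspartate and glutamate), with -0.43, and the lysosomal cystine exporter CTNS, with -0.40. In the plot of the lists, the medians of the lists run from -0.19 to 0.035. Single genes of each list lie outside the range that holds the middle 50% of all genes.

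**Figure D4:**
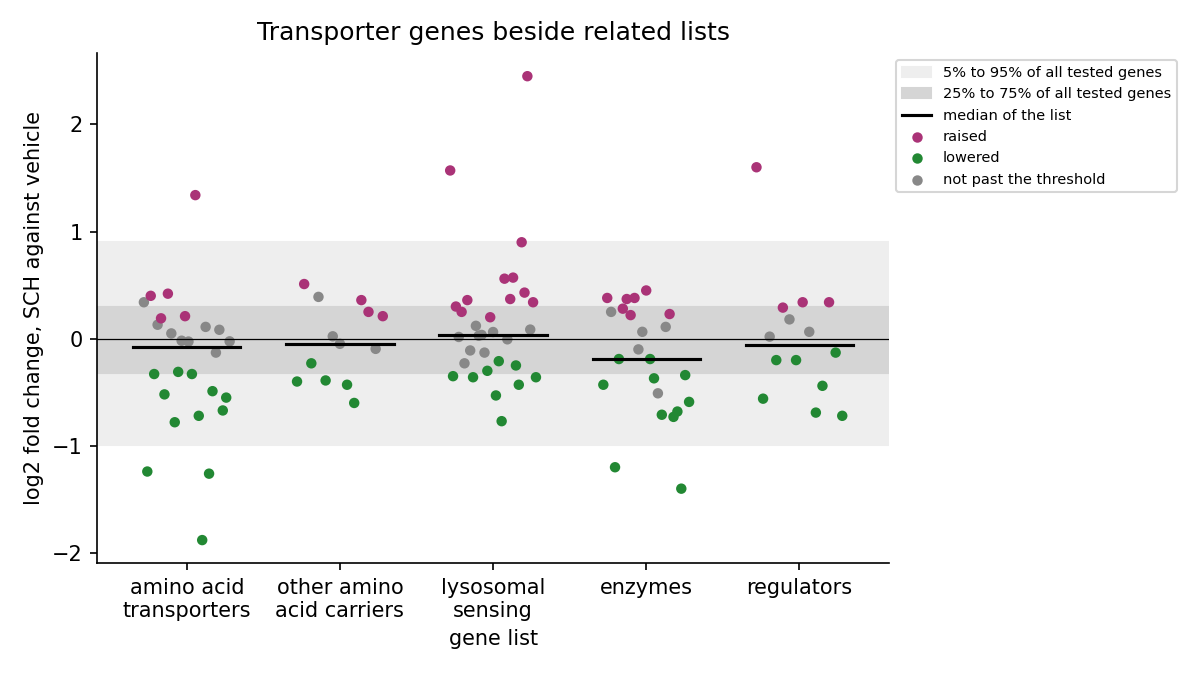
Log2 fold change of SCH against vehicle for the tested genes of the transporter set and of 4 related lists, with the median of each list as a bar and grey bands for the 25% to 75% and the 5% to 95% range of all tested genes. The medians run from -0.19 (enzymes) to 0.035 (lysosomal sensing). The 25% to 75% band, -0.325 to 0.300, is the spread of single genes and no measure for a median of a list.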

How the data were processed

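RNA from 3 vehicle and 3 SCH samples of MDA-MB-231 cells was sequenced by a service provider, Novogene. Deposited files hold gene counts that the authors left unnormalized, and FPKM made by the authors, which within a sample follow count over gene length. This length holds all annotated exon bases of a gene, so ratios of FPKM between genes depend on the annotation. The submitters' processing notes name CASAVA 1.8, HISAT2 2.0.5, featureCounts 1.5.0-p3, DESeq2 1.20.0 and GRCh38. The labels give RPMI-1640 as the medium and the study's methods DMEM. All 58735 gene identifiers are in GENCODE release 29.

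Counts were tested in R 4.3.3 with edgeR 4.0.16 (TMM, filterByExpr, quasi-likelihood test, no covariates, Benjamini-Hochberg over 14736 genes, threshold 0.05), which gave a common biological coefficient of variation of 5.17%. CPM values carry the TMM factors. SE is the absolute log2 fold change over the square root of F. Counting limits and floors of 3 counts cover counting error only. At 16836369 to 20291379 counts per sample, depth limits the genes that were not tested. No 2 samples were copies (chi-square per degree of freedom 2.12 to 5.75). Scripts were tested on simulated data.

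Described in full were the called members averaging 100 counts or more with groups apart (up to 20 by change), the 5 highest in mean FPKM, and SLC7A11, SLC3A2, SLC7A5, SLC1A5 and SLC38A2, and from each other list the 3 largest rises and falls among called genes averaging 100 counts or more. The members, lists and rules were chosen with earlier results of these data known. Alternatives were RLE, library size only, upper quartile, no filter, 10 counts in every sample, DESeq2 1.42.0, limma 3.58.1 on log2(FPKM + 1) and log2(FPKM + 0.1), a replicate block, each sample left out, and a change of at least 1. Figures were made with Python 3.11.15 and matplotlib 3.10.9. Proteins, animals and single compounds were not analysed here, and some genes under the naming rule are not reported here.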

Additional observations from a re-analysis of the deposited data

How the results depend on the processing

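Of the 26 tested transporter genes, 16 kept their side of the threshold in every alternative that tested them, leaving aside the limit on the size of change. No called member changed sign, while SLC3A2, SLC38A2, SLC38A7 and SLC7A7, none of them called, had values of either sign. At an absolute log2 fold change of at least 1, 1292 genes were called (573 raised, 719 lowered), 4 of them members (1 raised, 3 lowered), since the limit itself removes smaller changes. With library size only, 10 members were raised in place of 5, and their median log2 fold change was 0.025 in place of -0.078. Leaving out 1 sample at a time, where SLC1A7 could enter as a member lowered, admitted through vehicle alone, gave 14 to 18 changed members, 3 to 6 raised (3 without vehicle replicate 1) and 11 to 14 lowered, and a median from -0.19 (without SCH replicate 2) to -0.061 (without SCH replicate 3). That median was -0.16, -0.18 and -0.15 without vehicle replicate 1, vehicle replicate 2 and SCH replicate 1, and the cause was not tested. With the replicate number as a block, 8705 genes (4355 raised, 4350 lowered) and 17 members were called (5 raised, 12 lowered), with a median of -0.092. Deviations from the group means of samples that share a number had correlations across genes of 0.0464, -0.0222 and 0.022. For samples of different numbers they ran from -0.0843 to 0.0658. No pairing by number was seen, and whether samples of the same number were handled together cannot be told from these values. Depth limits what can be said of the 16 members with counts too low to test.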
